A study of Sus scrofa with 4 samples.

Results

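The 10 genes described here encode the contractile apparatus of smooth muscle and its desmin filament: ACTA2, TAGLN, MYH11, CNN1, MYLK, DES, TPM1, TPM2, LMOD1 and PALLD. They were taken by gene name from a deposited table of 20491 genes, each name matched 1 row, and all 10 were among the 15552 genes abundant enough to test. RNA sequencing was carried out on pig (Sus scrofa) granulosa cells, the labelled cell type, in 2 groups, siYTHDF2 cells transfected to interfere with YTHDF2 (2 libraries) and cells given a transfection negative control (2 libraries). Both groups were transfected, and the labels name no siRNA sequence, no BDNF treatment and no animal or culture of origin, so p-values here measure the spread between libraries, which may be technical. The series is about whether YTHDF2 carries the effect of BDNF on granulosa cell proliferation.

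Smooth muscle cells contract when myosin slides along actin filaments that are anchored in the cytoplasm and at the membrane. Calcium and calmodulin activate myosin light chain kinase, which phosphorylates the regulatory light chain of myosin, and myosin phosphatase reverses this. Many genes of the apparatus are known targets of serum response factor (SRF) and its myocardin-family coactivators. In the ovarian follicle, smooth muscle-like cells lie in the theca externa outside the granulosa layer, and cultured cells of several other types also make ACTA2 and TAGLN as part of their stress fibres.

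YTHDF2, whose product recognises N6-methyladenosine marks on mRNA and promotes decay, had 1122 and 1279 counts in the siYTHDF2 libraries, against 3660 and 3356 counts in the control libraries. Total counts were between 47209177 and 54841851 per library. The 10 genes together took 1.72% and 1.63% of the counts in the siYTHDF2 libraries, against 2.45% and 2.58% in the control libraries, after TMM scaling. Of the granulosa cell markers, the receptor FSHR lay at 10.2 and 11.3 CPM (the depth-scaled count unit used throughout, after TMM scaling) in siYTHDF2 libraries and 11.5 and 10.3 CPM in control libraries. CYP19A1, the aromatase gene, had at most 11 counts in any library. ACTA2, in contrast, ranked 6 among all genes by FPKM, which divides by gene length, in both siYTHDF2 libraries and 1 in both control libraries.

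Interference with YTHDF2 was accompanied by lower levels of 6 of the 10 genes (ACTA2, MYH11, MYLK, LMOD1, PALLD and TPM1) and by a higher level of DES, while TAGLN, CNN1 and TPM2 did not pass the test. The test was edgeR's quasi-likelihood test at a Benjamini-Hochberg adjusted p under 0.05 over all tested genes. Among all 15552 genes, 10.6% were called lower and 9.05% higher, 19.6% in all. The 10 genes and the gene lists below were chosen with earlier results of these data known. Shares and medians set beside those of all genes are therefore descriptions and not tests. The median log2 fold change of the 10 genes was -0.42, and that of all tested genes was 0.00. In 8 of the 10 genes the 2 groups did not overlap, 7 with siYTHDF2 below and 1 with it above; over all tested genes siYTHDF2 lay below in 30.0% and above in 30.1%, 60.0% in all, so the absence of overlap alone says little. The fitted differences covered a wide range, from -1.46 for LMOD1 to 2.0 for DES on the log2 scale.

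**Figure D1:**
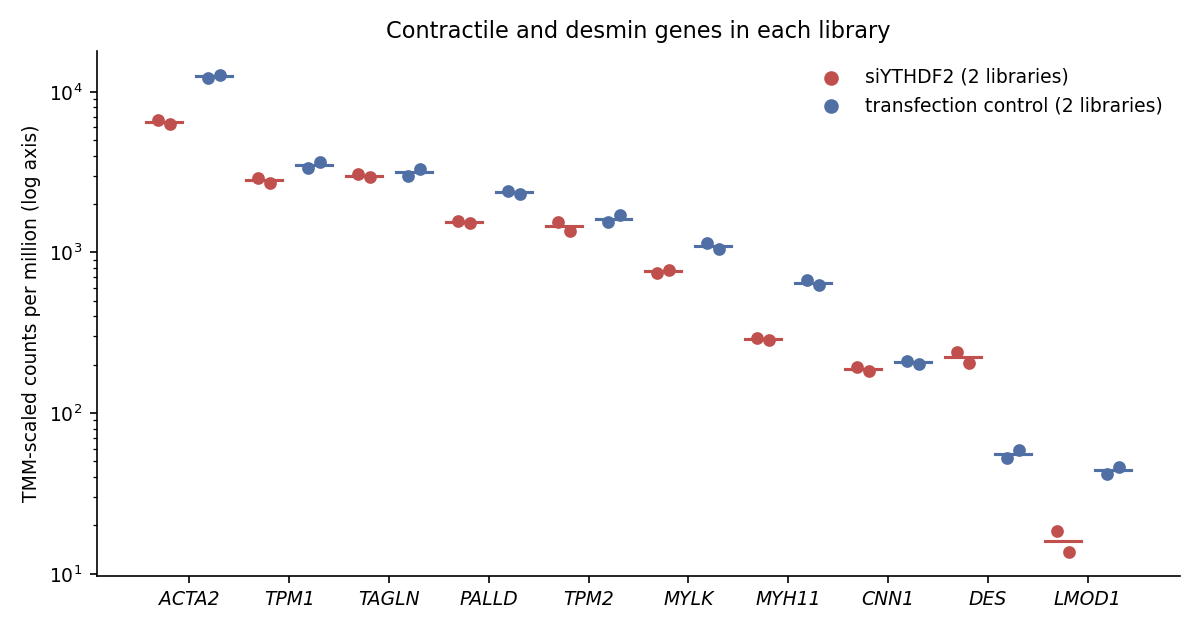
TMM-scaled CPM (log axis) of each of the 10 genes in the 2 siYTHDF2 libraries (red, left) and the 2 control libraries (blue, right), with horizontal lines at group means. The ACTA2 points of siYTHDF2 lie at 6639 and 6286 CPM, below both control points at 12147 and 12801 CPM, while DES is the gene whose siYTHDF2 points lie above its control points and TAGLN and TPM2 overlap.

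Of the genes of the thin filament, ACTA2 encodes smooth muscle alpha actin and spans positions 100867733 to 100886713 of chromosome 14 (ENSSSCG00000010447). Positions are printed as deposited, and their genome build is not stated in the labels or the table. Its level was 6639 and 6286 CPM in siYTHDF2 libraries, against 12147 and 12801 CPM in control libraries. Both siYTHDF2 values were about as far below the controls, with single pairs of libraries giving ratios of 0.491 to 0.547. The level in siYTHDF2 cells was 51.8% of that in the control, a log2 fold change of -0.95 (SE 0.07, edgeR adjusted p = 3.1e-05).

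The actins are closely related in sequence, so reads of ACTA2 may be shared with its relatives. ACTG2, the enteric smooth muscle gamma actin, had only 2.95% and 3.19% as many counts as ACTA2 in siYTHDF2 libraries and 2.74% and 2.60% in control libraries. It fell with a log2 fold change of -0.75 (SE 0.06, edgeR adjusted p = 7.34e-05). The cytoplasmic beta actin ACTB fell by 0.33 on the log2 scale (SE 0.07, edgeR adjusted p = 0.0128), a call lost without control replicate 1 (adjusted p = 0.0676) or siYTHDF2 replicate 1 (adjusted p = 0.0892). The cytoplasmic gamma actin ACTG1 lay at 8742 and 9035 CPM in siYTHDF2 libraries and 8875 and 8883 CPM in control libraries, a log2 fold change of 0.00 with a 95% confidence interval from -0.14 to 0.14. ACTA2 made up 34.5% and 32.3% of the counts of all 6 actin genes in siYTHDF2 libraries, against 46.2% and 48.2% in control libraries. The summed actin level was 19235 and 19445 CPM in siYTHDF2 libraries and 26322 and 26557 CPM in control libraries.

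The tropomyosins coil along actin filaments and govern the access of myosin. TPM1 (ENSSSCG00000004570, chromosome 1, 108986986 to 109016876) lay at 2918 and 2709 CPM in siYTHDF2 libraries, against 3333 and 3677 CPM in control libraries. The groups did not overlap, but the difference was small, a log2 fold change of -0.32 (SE 0.07, edgeR adjusted p = 0.016). It was no longer called without control replicate 2 (-0.25, adjusted p = 0.0687) or without siYTHDF2 replicate 2 (-0.27, adjusted p = 0.092) in the same edgeR test. TPM2 (ENSSSCG00000005316, chromosome 1, 236402251 to 236410416) lay at 1547 and 1361 CPM in siYTHDF2 libraries and 1537 and 1715 CPM in control libraries. Here one siYTHDF2 library was as high as the lower control, and the log2 fold change of -0.16 had a 95% confidence interval from -0.35 to 0.02 (edgeR adjusted p = 0.21). Their relatives TPM3 and TPM4 stood at log2 fold changes of 0.12 and -0.09 and were not called. Counts were per gene, so different transcripts of a gene were not told apart.

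LMOD1 encodes leiomodin 1, which nucleates actin filaments in smooth muscle, and was the last of the 10 genes by FPKM in every library. Its deposited counts were 875 and 756 in siYTHDF2 libraries and 2185 and 2512 in control libraries (ENSSSCG00000031201, chromosome 10, 24164792 to 24193820). The level was 18.4 and 13.7 CPM in siYTHDF2 libraries, against 41.5 and 46.5 CPM in control libraries. It had the largest fall of the 10 genes, a log2 fold change of -1.46 (SE 0.14, edgeR adjusted p = 0.000186), and also the largest difference between replicates, -0.42 on the log2 scale for siYTHDF2 replicate 2 against replicate 1. Only 2.11% of all tested genes had a lower log2 fold change. Tropomodulins, relatives of leiomodin that cap the pointed end of actin filaments, moved in both directions. TMOD1 rose by 0.62 on the log2 scale (SE 0.11, edgeR adjusted p = 0.0043), TMOD2 fell by 0.80 (SE 0.15, edgeR adjusted p = 0.00547), and TMOD3, at 139 and 137 CPM in siYTHDF2 libraries and 130 and 127 CPM in control libraries, was not called.

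Of the actin-binding proteins, TAGLN encodes transgelin (SM22), which binds and bundles actin filaments, and was the second gene by FPKM in every library among the 10. TAGLN (ENSSSCG00000015073, chromosome 9, 44564666 to 44567385) lay at 3068 and 2942 CPM in siYTHDF2 libraries and 2997 and 3328 CPM in control libraries. The groups overlapped, and the log2 fold change was -0.07 with a 95% confidence interval from -0.23 to 0.09 (edgeR adjusted p = 0.534). That interval does not reach the fall of ACTA2, whose own interval ran from -1.10 to -0.80. The ratio of TAGLN to ACTA2 in FPKM was 0.491 and 0.497 in siYTHDF2 libraries, against 0.262 and 0.276 in control libraries. With 2 libraries a group such a ratio cannot give a two-sided exact permutation p below 0.333, so it was not tested. TAGLN2, the nonmuscle transgelin, rose by 0.27 on the log2 scale (SE 0.07, edgeR adjusted p = 0.0257), but was not called without control replicate 1 (adjusted p = 0.12) or siYTHDF2 replicate 1 (adjusted p = 0.21).

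CNN1 encodes calponin 1, which binds actin and inhibits the myosin ATPase. Its level was 193 and 182 CPM in siYTHDF2 libraries, against 211 and 203 CPM in control libraries (ENSSSCG00000013614, chromosome 2, 70183364 to 70190752). Both siYTHDF2 values lay below both controls, yet the log2 fold change of -0.14 did not pass the test (95% confidence interval -0.29 to 0.01, edgeR adjusted p = 0.177). The calponins CNN2 and CNN3, made in many cell types, stood at log2 fold changes of -0.13 and -0.12 and were not called either.

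**Figure D2:**
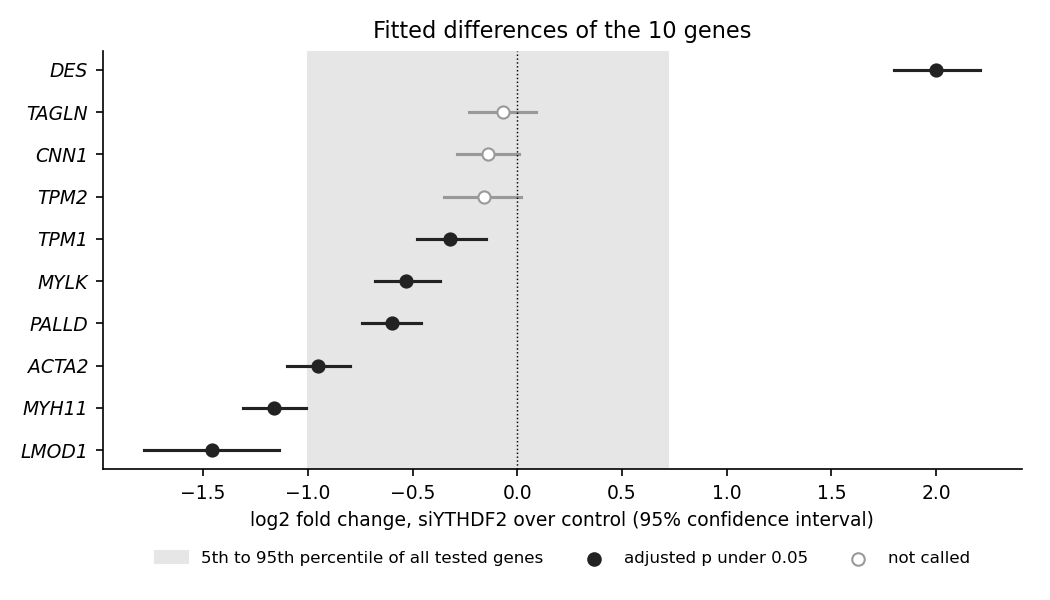
Log2 fold change of each of the 10 genes, siYTHDF2 over control, with its 95% confidence interval from the edgeR fit (filled, adjusted p under 0.05; open, not called), over a grey band from the 5th to the 95th percentile of all tested genes (-1.0 to 0.72). LMOD1 and MYH11 lie below the band at -1.46 and -1.16, DES lies above it at 2.0, and the intervals of TAGLN, CNN1 and TPM2 include 0.

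The motor and its kinase were both lower. MYH11, the smooth muscle myosin heavy chain, is often used as the most specific marker of differentiated smooth muscle. It lay at 294 and 284 CPM in siYTHDF2 libraries, against 671 and 623 CPM in control libraries (ENSSSCG00000000146, chromosome 3, 7002735 to 7143095). The replicates were close and the groups far apart, with a log2 fold change of -1.16 (SE 0.07, edgeR adjusted p = 1.18e-05) and ratios of 0.423 to 0.472 between single pairs of libraries. NDE1 overlaps 17160 bases of the gene on the opposite strand, and no label or header says whether counting used strand. NDE1 had 3335 and 3462 counts in siYTHDF2 libraries and 3946 and 4005 in control libraries, and was not called (log2 fold change -0.17, edgeR adjusted p = 0.181).

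The nonmuscle myosin heavy chain MYH9 lay at 4148 and 4331 CPM in siYTHDF2 libraries and 4102 and 3683 CPM in control libraries, and was not called (log2 fold change 0.12, 95% confidence interval -0.04 to 0.28). MYH14, another nonmuscle chain, was scarce at 1.43 and 1.58 CPM in siYTHDF2 libraries and 4.35 and 3.40 CPM in control libraries, and fell by 1.36 on the log2 scale (SE 0.27, edgeR adjusted p = 0.00808).

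MYLK, the myosin light chain kinase gene, lay at 746 and 780 CPM in siYTHDF2 libraries, against 1143 and 1055 CPM in control libraries (ENSSSCG00000011867, chromosome 13, 136509755 to 136809668). Its level in siYTHDF2 cells was 69.4% of that in the control, a log2 fold change of -0.53 (SE 0.07, edgeR adjusted p = 0.000913). The fall was smaller than that of MYH11, and the 95% confidence intervals of these 2 genes, -0.68 to -0.37 for MYLK and -1.31 to -1.01 for MYH11, did not overlap. The ratio of MYH11 to MYLK in FPKM was 0.397 and 0.366 in siYTHDF2 libraries and 0.590 and 0.594 in control libraries.

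PALLD encodes palladin, a scaffold of stress fibres and dense bodies that binds alpha-actinin. Its level was 1580 and 1531 CPM in siYTHDF2 libraries, against 2406 and 2320 CPM in control libraries (ENSSSCG00000029331, chromosome 14, 20678452 to 21020125). Replicates agreed closely, and the log2 fold change was -0.60 (SE 0.06, edgeR adjusted p = 0.000269). A protein-coding gene model without a symbol overlaps 2837 bases of PALLD on the opposite strand, but it had no more than 6 counts in any library. PALLD remained the fifth of the 10 genes by FPKM in every library.

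DES encodes desmin, the intermediate filament protein of muscle, which links dense bodies and sarcomeres to the membrane. Its deposited counts were 11358 and 11374 in siYTHDF2 libraries, against 2748 and 3170 in control libraries (ENSSSCG00000020785, chromosome 15, 121427642 to 121435423). At 239 and 206 CPM in siYTHDF2 libraries, against 52.2 and 58.6 CPM in control libraries, the level was 4.01-fold higher, with ratios of 3.52 to 4.57 between single pairs of libraries. The log2 fold change of 2.0 (SE 0.09, edgeR adjusted p = 5.24e-06) was exceeded by 0.682% of all tested genes. No other gene in the deposited table lay within 10000 bases of DES.

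Related filament genes differed less between the groups than DES did. VIM, the intermediate filament gene of mesenchymal cells, lay at 5320 and 5186 CPM in siYTHDF2 libraries and 4595 and 4898 CPM in control libraries and was not called (log2 fold change 0.15, edgeR adjusted p = 0.15). The ratio of DES to VIM in FPKM was 0.0487 and 0.0432 in siYTHDF2 libraries and 0.0123 and 0.0130 in control libraries. NES, the gene of nestin, rose by 0.43 (SE 0.06, edgeR adjusted p = 0.00156). CRYAB, a small heat shock protein that chaperones desmin, rose by 0.69 (SE 0.14, edgeR adjusted p = 0.00784). SYNM, whose product synemin co-assembles with desmin, overlapped between groups at 7.06 and 7.98 CPM in siYTHDF2 libraries and 11.7 and 7.55 CPM in control libraries. Of the 14 tested genes of this list, which also holds lamins and keratins, 3 were higher (NES, CRYAB and LMNB1), 21.4% against 9.05% of all tested genes, and the median log2 fold change was 0.09. LMNB1, a nuclear lamin, was not called without siYTHDF2 replicate 1 (edgeR adjusted p = 0.0544). None was lower in edgeR or DESeq2, 1 was lower at an unadjusted p under 0.05 in edgeR, and 1 was called lower in limma on log2(FPKM + 1).

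**Figure D3:**
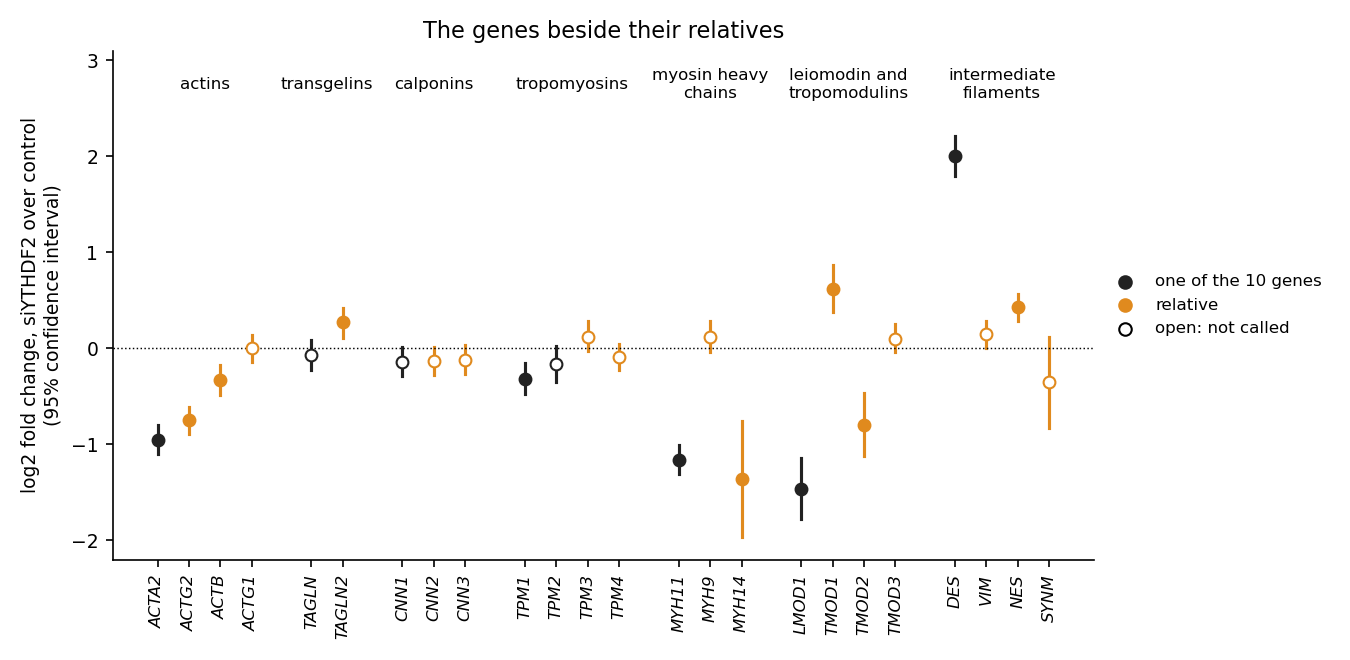
Log2 fold change, siYTHDF2 over control, with 95% confidence intervals for 8 of the 10 genes (black) beside their relatives (orange), grouped by protein family; open symbols were not called. ACTA2 at -0.95 and MYH11 at -1.16 lie below the cytoplasmic forms ACTG1 at 0.00 and MYH9 at 0.12, the calponins lie close together, and DES at 2.0 lies above VIM at 0.15.

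Striated muscle also makes desmin, so its markers were examined beside DES. Only 14 of 29 listed striated muscle genes had a row under their name, and the rest could not be examined. Of the 14, 7 stayed under 1 CPM in every library. The summed level of the 14 was 14.5 and 11.8 CPM in siYTHDF2 libraries and 12.2 and 14.4 CPM in control libraries. ACTC1, the cardiac actin, had 0 and 6 counts in siYTHDF2 libraries and 0 in both control libraries. Of the 11 that could be tested, MYL1, an essential light chain of fast muscle, was the only called gene, at 4.14 and 3.03 CPM in siYTHDF2 libraries and 1.65 and 1.91 CPM in control libraries (edgeR adjusted p = 0.0326). Its call was lost in DESeq2 (adjusted p = 0.0578) and in edgeR without either control library or without siYTHDF2 replicate 1 (adjusted p = 0.0506 to 0.214). None of the list was called lower in edgeR or DESeq2, with 2 lower at an unadjusted p under 0.05 in edgeR. In limma on log2(FPKM + 1), 1 gene of the list was called higher and 2 lower.

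Per unit of gene length, the order of the 10 genes within a library was ACTA2, TAGLN, TPM2, TPM1, PALLD and CNN1 in all 4 libraries. ACTA2 took 50.8% and 50.9% of the summed FPKM of the 10 genes in siYTHDF2 libraries, against 64.0% and 63.6% in control libraries. TAGLN took 24.9% and 25.3% in siYTHDF2 libraries and 16.8% and 17.6% in control libraries. The order changed among the scarcer genes. DES had 69.5 FPKM in both siYTHDF2 libraries, where MYLK had 67.7 FPKM in replicate 1 and 82.1 FPKM in replicate 2, and lay above MYH11 at 26.9 and 30.0 FPKM. In control libraries DES had 17.1 and 19.4 FPKM and lay below MYH11 at 68.8 and 64.8 FPKM, which in turn lay below MYLK at 117 and 109 FPKM. TPM2 had 370 and 377 FPKM in siYTHDF2 libraries and 413 and 467 FPKM in control libraries, in each library more than TPM1, which had 307 and 330 FPKM in siYTHDF2 libraries and 394 and 441 FPKM in control libraries. LMOD1 stood at 4.43 and 3.83 FPKM in siYTHDF2 libraries and 11.2 and 12.8 FPKM in control libraries.

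**Figure D4:**
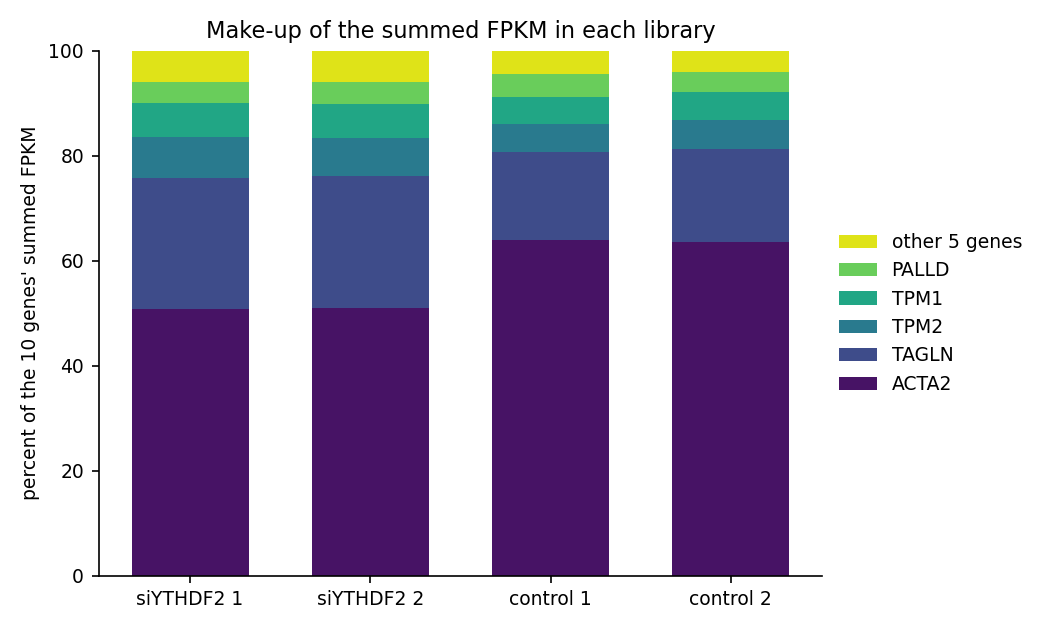
Share of the 10 genes' summed FPKM taken by each gene in each library, as stacked bars from 0 to 100 percent, with the 5 scarcest genes pooled. ACTA2 takes 50.8% and 50.9% in siYTHDF2 libraries and 64.0% and 63.6% in control libraries, and TAGLN takes the larger share in siYTHDF2 libraries.

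Other genes of the contractile and actin-anchoring apparatus fell more often than they rose. Of 31 tested, 11 were lower, 2 higher and 18 not called, with a median log2 fold change of -0.31, against 10.6% lower and a median of 0.00 over all tested genes. SMTN, the gene of the smooth muscle protein smoothelin, lay at 146 and 155 CPM in siYTHDF2 libraries, against 256 and 242 CPM in control libraries, and fell by 0.72 on the log2 scale (SE 0.07, edgeR adjusted p = 0.000152). FHL1, a LIM domain protein of muscle, fell by 0.58 (SE 0.06), CSRP2, a LIM protein of smooth muscle, by 0.91 (SE 0.12), and PDLIM7, which links actin to kinases, by 0.49 (SE 0.07). PDLIM3, a partner of alpha-actinin, was at 0 counts in both siYTHDF2 libraries and at 32 and 49 counts in control libraries and is given no fold change.

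In the machinery that sets myosin light chain phosphorylation, 2 of 20 tested genes were lower and 2 higher, shares near the 10.6% and 9.05% of all tested genes. The median log2 fold change was -0.04. The number called higher was 5 in DESeq2 and 0 in limma on log2(FPKM + 1). PPP1R12B, the myosin-targeting subunit of myosin phosphatase in muscle, lay at 28.0 and 28.6 CPM in siYTHDF2 libraries, against 67.8 and 61.7 CPM in control libraries, and fell by 1.19 on the log2 scale (SE 0.09, edgeR adjusted p = 4.17e-05). Its ubiquitous relative PPP1R12A was at a log2 fold change of -0.18 and was not called. PRKG1, the cyclic GMP-dependent kinase that relaxes smooth muscle, fell by 0.66 (SE 0.14, edgeR adjusted p = 0.012). ARHGEF1, a guanine nucleotide exchange factor, rose by 0.32 (SE 0.08), but was not called without control replicate 2 (adjusted p = 0.0675) or without siYTHDF2 replicate 2 (adjusted p = 0.0774) in edgeR.

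Of the transcriptional regulators, SRF lay at 49.2 and 56.4 CPM in siYTHDF2 libraries, against 63.0 and 59.8 CPM in control libraries, and was not called (log2 fold change -0.22, edgeR adjusted p = 0.118). Its coactivator MRTFA, which actin holds in the cytoplasm, fell by 0.48 on the log2 scale (SE 0.09, edgeR adjusted p = 0.00607). MRTFB had a log2 fold change of -0.46 and was not called (edgeR adjusted p = 0.0782), but it was called without siYTHDF2 replicate 2 (-0.76, edgeR adjusted p = 0.00219). MYOCD, the gene of myocardin, was scarce at 5.78 and 5.38 CPM in siYTHDF2 libraries and 4.01 and 3.61 CPM in control libraries, and was not called (log2 fold change 0.55, edgeR adjusted p = 0.0822). Of the 21 tested regulators 4 were lower, 19.0% against 10.6% of all tested genes. None was called higher by edgeR, DESeq2 or limma on log2(FPKM + 1), though 3 were higher at an unadjusted p under 0.05 in edgeR. The lower ones were MRTFA, PRRX1 at -0.87, SMAD3 at -0.53 and FOXO4 at -0.61. PRRX1 is a homeobox factor of mesenchyme and SMAD3 a transducer of TGF-beta signals. The FOXO4 call was lost without control replicate 2 (adjusted p = 0.111) or without siYTHDF2 replicate 2 (adjusted p = 0.168) in edgeR.

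**Figure D5:**
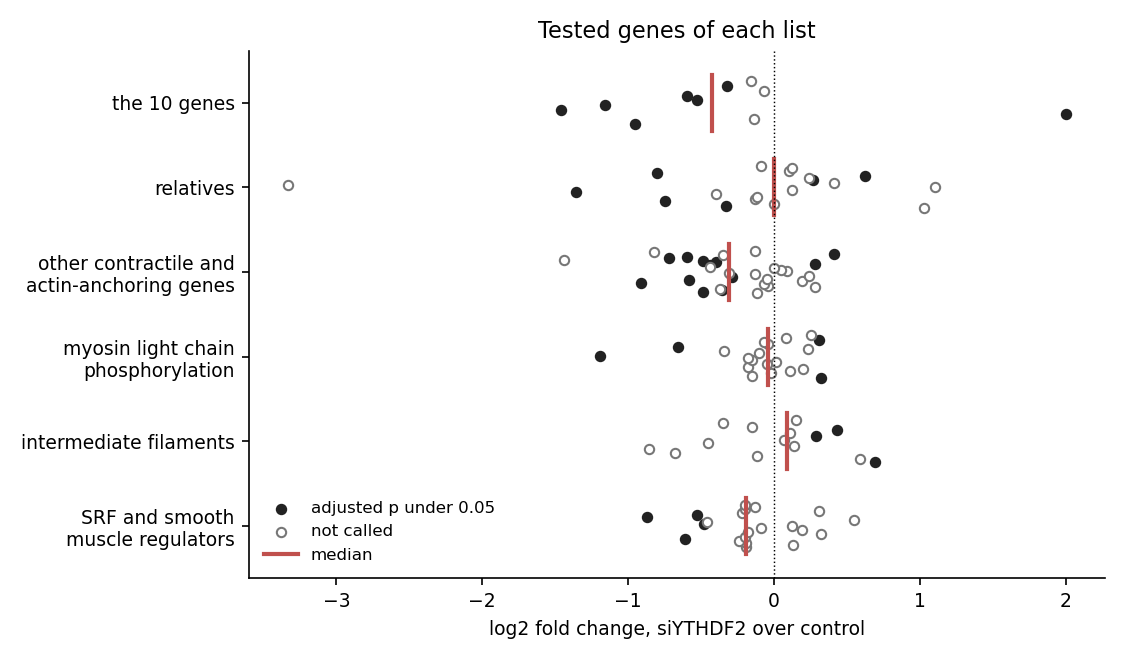
Log2 fold change, siYTHDF2 over control, of every tested gene in the list of 10 and in the 5 companion lists (filled, adjusted p under 0.05; open, not called; red line, list median over all tested members), leaving out genes at 0 in both libraries of a group. The medians are -0.42 for the 10 genes, 0.00 for relatives, -0.31 for other contractile genes, -0.04 for light chain phosphorylation, 0.09 for intermediate filaments and -0.19 for regulators.

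The annotation in the deposited table put 3 of the 10 genes (ACTA2, MYH11 and MYLK) in the KEGG pathway of vascular smooth muscle contraction. Of the 88 other tested genes of that pathway 14 were lower and 8 higher. That is 15.9% and 9.09%, against 10.6% and 9.05% of all tested genes. Their median log2 fold change was -0.12, against 0.00 over all tested genes. AGTR1, the angiotensin II receptor of that pathway, fell to 65.3 and 60.7 CPM in siYTHDF2 libraries, against 144 and 146 CPM in control libraries (log2 fold change -1.21, edgeR adjusted p = 1.18e-05), and was singled out after its values were seen. The GO term stress fiber held MYLK, PALLD and TPM1, and of its 44 other tested genes 17 were lower and 3 higher, 38.6% and 6.82%. That was the highest share lower of all terms holding at least 3 of the 10 genes. The GO term cytoskeleton held 8 of the 10, and of its 379 other tested genes 11.3% were lower and 12.9% higher. For actin binding, which held 5 of the 10, the shares were 17.6% and 12.1%.

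Part of the markers of cells that neighbour the granulosa layer was lower beside the contractile genes. Of 13 listed theca and stroma markers 11 were found by name and tested, while CYP17A1 and INSL3 had no row. Of the 11, 7 were lower in edgeR, 63.6% against 10.6% of all tested genes. These were the collagen genes COL1A1, COL1A2 and COL3A1, and DCN, LUM, PDGFRA and GLI1. TCF21, LHCGR, PTCH1 and STAR were not called. DESeq2 called 6 lower and limma on log2(FPKM + 1) called 7. None was higher in any of these, or at an unadjusted p under 0.05 in edgeR. The list summed to 2851 and 3048 CPM in siYTHDF2 libraries, against 6924 and 6676 CPM in control libraries. Most of this sum was the collagen genes COL1A1, COL1A2 and COL3A1. COL1A1 alone lay at 1144 and 1261 CPM in siYTHDF2 libraries and 3252 and 2918 CPM in control libraries. The 3 markers under 1 CPM in every library were LHCGR and STAR, not called, and GLI1, called lower. Of 10 listed markers of pericytes, the contractile cells of small vessels, 8 were found by name and 7 tested. Of those 7, 2 were lower in edgeR. That is 28.6% of a short list, against 10.6% of all tested genes. None of the pericyte list was higher in edgeR, with 1 higher at an unadjusted p under 0.05 and 1 in DESeq2. The lower ones were RGS5, at 9.43 and 10.3 CPM in siYTHDF2 libraries and 63.8 and 56.2 CPM in control libraries, and CSPG4. CSPG4 lay at 282 and 302 CPM in siYTHDF2 libraries, against 450 and 400 CPM in control libraries. MCAM lay higher, at 36.2 and 29.4 CPM in siYTHDF2 libraries and 23.4 and 26.7 CPM in control libraries. It was not called in edgeR (log2 fold change 0.39, adjusted p = 0.0574). PDGFRB overlapped between the groups and was not called (log2 fold change -0.15). The pericyte list, mostly CSPG4, summed to 388 and 415 CPM in siYTHDF2 libraries and 623 and 555 CPM in control libraries. The granulosa list summed to 3051 and 3166 CPM in siYTHDF2 libraries and 3261 and 3094 CPM in control libraries. Most of that granulosa sum was the gap junction gene GJA1, at 2106 and 2246 CPM in siYTHDF2 libraries and 2515 and 2386 CPM in control libraries, which was not called. Of the 14 tested granulosa markers, 1 was higher and 1 lower in edgeR, 7.14% each, against 9.05% higher and 10.6% lower among all tested genes. SERPINE2, a protease inhibitor, rose by 0.98 on the log2 scale (edgeR adjusted p = 2.29e-05), and INHBB, the inhibin beta B subunit, fell by 0.69 (edgeR adjusted p = 0.00213). Endothelial, leukocyte and epithelial lists were low, the highest sum being 30.2 CPM for the endothelial list in a siYTHDF2 library. Of that list, PECAM1 lay at 12.4 and 11.9 CPM in siYTHDF2 libraries and 13.7 and 14.5 CPM in control libraries, near FSHR. ERG lay at 14.3 and 14.5 CPM in siYTHDF2 libraries and 11.6 and 9.68 CPM in control libraries, and neither was called. In edgeR VWF was called higher and CLDN4 lower, each with 0 counts in both libraries of a group, and neither was called in DESeq2. In bulk RNA, fewer cells of a type and less RNA per cell cannot be told apart, and the part of these markers in the result was not tested.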

How the data were processed

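RNA was taken up in Trizol and sequenced from TruSeq libraries, per the labels' protocols, which also mention retinas. Bowtie 0.12.2 and a mouse build stand in the submitters' processing notes and go against the pig gene identifiers, so the aligner, counter and build behind the values are not known here. The authors deposited 1 table with raw counts and FPKM per library. Counts per FPKM of a gene were nearly equal in all libraries (100.0% to 101.6% of control replicate 1, median over 12083 genes), although total counts were 88.5% to 103% of it. Levels in FPKM are therefore read within a library, although values of both groups are printed side by side. The limma alternatives, in contrast, compare FPKM between the groups.

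Counts were tested with edgeR 4.0.16 (R 4.3.3): expression filter, TMM scaling, robust quasi-likelihood test, group as the only term, adjustment over 15552 genes, threshold 0.05. Standard errors are the log2 fold change over the root of F, and CPM are TMM-scaled. Scripts were tested on simulated data. Alternatives used DESeq2 1.42.0 and limma 3.58.1. Members and lists were chosen with earlier results of these data known. Of each companion list up to 4 called genes with the smallest p are named, except 1 gene called higher in the light chain phosphorylation list, which is not reported here, besides SRF, MYOCD, MRTFA, MRTFB and relatives of the 10 genes; 5 list genes were named by their deposited description. The search for promoter motifs and the comparison of proteins were not run.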

Additional observations from a re-analysis of the deposited data

How the results depend on the processing

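The 14 alternatives covered scaling, filter, tool, unit, shrinkage, each library left out and a replicate block. ACTA2, MYH11, MYLK, LMOD1, PALLD and DES kept their direction and their call, and TAGLN, CNN1 and TPM2 stayed uncalled, under all 14. ACTA2 ranged from -1.02 to -0.69 and DES from 1.88 to 2.10 on the log2 scale. TPM1 lost its call under a replicate block (-0.32, edgeR adjusted p = 0.0595; there ACTB, adjusted p = 0.0538, and TAGLN2, adjusted p = 0.0854, lost theirs too) and without replicate 2 of either group (-0.39 to -0.25 over the 4 libraries left out in turn). Genes called higher over the whole table numbered 1408, but 574 in limma on log2(FPKM + 1), 548 on log2(FPKM + 0.1) and 791 to 1287 with a library left out (879 without control replicate 1 and 791 without siYTHDF2 replicate 1). In both limma fits on FPKM as deposited 72.7% of the calls were lower, against 53.9% in edgeR, and 2 companion genes were called higher there, against 9 in edgeR. Of the genes named beside the 10, NES, LMNB1, ARHGEF1, TAGLN2 and MYL1 were not called in either of those limma fits. In limma after quantile normalization ACTB, FOXO4 and PRKG1 were not called. There 53.1% of the calls were lower, and 9 companion genes were called higher. The median log2 fold change of all genes stayed between -0.062 and 0.01. With a library left out, the lone library of a group is assumed to vary like the pair of the other group. Same-numbered libraries did not deviate together (correlation -0.0527 over genes), so the numbers are not taken to pair the libraries; the block called 1020 genes higher. With 2 libraries a group, small differences such as those of CNN1 and TPM2 are not resolved.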
